A study of Homo sapiens with 5 samples.

Results

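The genes described here are the nuclear genes that encode subunits of the oxidative phosphorylation (OXPHOS) complexes, measured by RNA-seq in SAS cells, an established human line from a squamous cell carcinoma of the tongue. They were chosen by gene symbol alone: the NDUFA, NDUFB, NDUFC, NDUFS and NDUFV series, SDHA to SDHD, the UQCR series and CYC1, 10 COX genes, and all symbols that start with ATP5. The rule found 79 genes among the 15187 listed in both deposited tables, namely 36 of complex I, 4 of complex II, 10 of complex III, 11 of complex IV and 18 of complex V. NDUFA4 was counted with complex IV, of which its protein is a subunit. The subunits encoded by mitochondrial DNA are not analysed here.

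Cells carried a control short hairpin RNA (shCtrl) or a short hairpin RNA against CCT2 (shCCT2), a subunit of the cytosolic chaperonin CCT, which folds actin, tubulin and other proteins. The libraries came in a pair of deposited tables. shCtrl 1 was deposited with shCCT2 1 and shCCT2 2 (set A), and shCtrl 2 with shCCT2 3 (set B). All 5 libraries were of the same line, and the labels give no further treatment, time point or clone. They do not say whether the shCCT2 libraries carried 1 hairpin sequence or several, nor whether libraries came from separate cultures, so a p-value reflects how much these libraries vary, and that variation may be technical.

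OXPHOS is the last stage of respiration in the inner mitochondrial membrane. Complexes I and II feed electrons from NADH and succinate into the chain, complex III passes them to cytochrome c, complex IV reduces oxygen, and complex V, the ATP synthase, uses the proton gradient that complexes I, III and IV build. Most subunits are made from nuclear genes in the cytosol and imported, and their genes are known to be regulated in part by the factors NRF1, GABP (of the ETS family) and YY1.

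The promoters of 5 genes that the results below turn on are shown: COX5B had the smallest p of all members, NDUFA7 was lower by a similar amount in every knockdown library, ATP5F1C had the most negative change in shCCT2 3, and ATP5MC1 and ATP5MC2, which encode the same mature subunit, differed from the control in opposite directions in set B. Each is the RefSeq window on GRCh38.p14 from 250 bases before to 50 after the gene's start, 300 bases written 5′ to 3′ on the gene's strand. Capitals mark exact matches, on either strand, to the NRF1 core GCGCATGC, the ETS motif CCGGAAGT or the YY1 motif AAGATGGCG. The windows lie at chr2:97645812-97646111 on the plus strand (COX5B), chr19:8321326-8321625 on the minus strand (NDUFA7), chr10:7787927-7788226 on the plus strand (ATP5F1C), chr17:48892537-48892836 on the plus strand (ATP5MC1) and chr12:53676034-53676333 on the minus strand (ATP5MC2).
COX5B: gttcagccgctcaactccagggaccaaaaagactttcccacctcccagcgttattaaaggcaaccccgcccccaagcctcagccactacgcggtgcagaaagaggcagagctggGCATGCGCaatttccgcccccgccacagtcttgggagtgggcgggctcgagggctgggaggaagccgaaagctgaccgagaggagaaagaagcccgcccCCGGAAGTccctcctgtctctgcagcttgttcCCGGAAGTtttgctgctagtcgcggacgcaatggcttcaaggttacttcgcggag
NDUFA7: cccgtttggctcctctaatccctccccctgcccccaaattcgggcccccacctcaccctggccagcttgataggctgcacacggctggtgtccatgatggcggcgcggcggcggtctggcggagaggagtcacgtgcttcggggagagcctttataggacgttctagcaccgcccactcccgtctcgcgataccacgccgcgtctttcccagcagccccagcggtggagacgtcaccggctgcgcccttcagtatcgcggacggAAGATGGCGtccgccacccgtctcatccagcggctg
ATP5F1C: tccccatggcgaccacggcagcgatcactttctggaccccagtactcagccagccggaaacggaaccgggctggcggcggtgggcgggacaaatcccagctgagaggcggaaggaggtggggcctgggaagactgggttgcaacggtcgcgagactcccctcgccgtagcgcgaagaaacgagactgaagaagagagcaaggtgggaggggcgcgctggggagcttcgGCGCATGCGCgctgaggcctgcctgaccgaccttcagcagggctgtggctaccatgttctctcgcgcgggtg
ATP5MC1: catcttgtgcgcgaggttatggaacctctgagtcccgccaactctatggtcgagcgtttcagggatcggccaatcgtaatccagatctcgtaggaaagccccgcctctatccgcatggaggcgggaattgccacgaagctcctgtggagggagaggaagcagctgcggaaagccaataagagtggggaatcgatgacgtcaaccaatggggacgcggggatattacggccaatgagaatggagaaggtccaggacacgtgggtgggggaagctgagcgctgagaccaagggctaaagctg
ATP5MC2: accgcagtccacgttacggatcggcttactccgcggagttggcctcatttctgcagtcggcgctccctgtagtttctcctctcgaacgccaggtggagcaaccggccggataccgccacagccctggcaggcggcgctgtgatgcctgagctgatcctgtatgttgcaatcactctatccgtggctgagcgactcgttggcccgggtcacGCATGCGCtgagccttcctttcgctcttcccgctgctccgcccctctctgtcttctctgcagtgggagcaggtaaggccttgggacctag
COX5B held both an NRF1 and an ETS match, NDUFA7 a YY1 match, and ATP5F1C and ATP5MC2 an NRF1 match. ATP5MC1 held none of the 3. RefSeq promoters were matched for 65 of the 79 genes, and 25 of them held at least 1 of these 3 motifs. The NRF1 core was in 13 member promoters, 20% of them, against 3.05% of all 35116 promoters of the same length. The ETS motif was in 10 (15.4%, against 4.14%) and the YY1 motif in 8 (12.3%, against 1.75%). The TATA box TATAAA, which capitals do not mark, was in 6 (9.23%, against 11.5%). NRF1 and YY1 matches occurred together in 4 promoters and NRF1 and ETS matches in 2, and matches to different motifs overlapped in 0. The 35116 promoters were not limited to expressed genes, and no comparison with promoters of expressed genes was made. A match is a run of letters and not a measured binding site.

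Each library held between 16913585 and 18156592 counts, and the least abundant member that was tested had 180 counts in its lowest library. Levels are CPM, library-normalised counts after TMM scaling, and a change of a single library is the log2 ratio to the control of its own table with 0.5 CPM added. CCT2 stood at 629.9 CPM in shCtrl 1, 296 in shCCT2 1 and 272 in shCCT2 2, and at 642 in shCtrl 2 and 260 in shCCT2 3. All 3 knockdown libraries lay below both controls, differing from their own control by -1.09, -1.21 and -1.30 on the log2 scale. The fit gave -1.22 ± 0.18 (SE). Its adjusted p was 0.542 in edgeR's quasi-likelihood test, which had 2 residual degrees of freedom, and 3.9e-05 in DESeq2. Squamous markers (KRT5, KRT14, TP63 and 5 others) were all expressed, summing to 1327 to 5027 CPM, lowest in shCtrl 2, where CDH1, the epithelial cadherin, stood at 10.6 CPM against 251.5 in shCtrl 1. Of 7 fibroblast markers, 3 were in both tables and summed to 3.004 to 12.3 CPM. The 5 endothelial markers summed to 2.08 to 7.48 CPM, with KDR at 0 in 3 libraries. Of 6 leukocyte markers, 4 were in both tables and summed to 44.2 to 121 CPM, most of it CD68, with PTPRC at most 6.51 CPM. The part of these other markers in the OXPHOS values was not tested. The share of reads in the final 20% of transcript positions was 17.3%, 14.3% and 15.8% in shCtrl 1, shCCT2 1 and shCCT2 2, and 15.8% and 14.6% in shCtrl 2 and shCCT2 3, and its part in the results was not tested.

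OXPHOS transcripts stayed close to their controls in set A and spread both ways in set B. In bulk samples, fewer expressing cells and less RNA per cell cannot be told apart. Of the 79 genes, 78 passed the filter on low counts. The exception was UQCRHL, a near copy of the complex III gene UQCRH, with at most 2 counts in a library. In shCCT2 1, 34 members were higher and 44 lower than in shCtrl 1, with a median log2 change of -0.04. In shCCT2 2, 12 were higher and 66 lower, with a median of -0.10. In shCCT2 3, 45 were higher and 33 lower than in shCtrl 2, with a median of 0.11. The medians of all 13123 genes tested were -0.0014, -0.0003 and -0.02 in the same libraries. Of those genes, 6578, 6571 and 6715 were lower, which also stand beside the counts by complex below. Without scaling, the median of all genes in shCCT2 3 moved to -0.13 and that of the members to 0.00119, with 39 members lower, so the members stood above the median gene by a similar amount with either scaling.

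The members varied less among themselves than genes at large did. The interquartile range of their log2 changes was 0.21, 0.14 and 0.62 in shCCT2 1, 2 and 3, against 0.49, 0.27 and 1.03 over all genes tested. At a 1.5-fold change, 0 members were higher and 0 lower in shCCT2 1, where 3.7% of all genes were that much higher and 10.4% that much lower. Likewise 0 and 0 members passed it in shCCT2 2, beside 2.32% and 3.09% of all genes. In shCCT2 3, 10 members were at least 1.5-fold higher and 4 at least 1.5-fold lower, beside 19.8% and 24.5% of all genes. The members are expressed well above the filter, and no comparison with genes of like level was made.

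**Figure D1:**
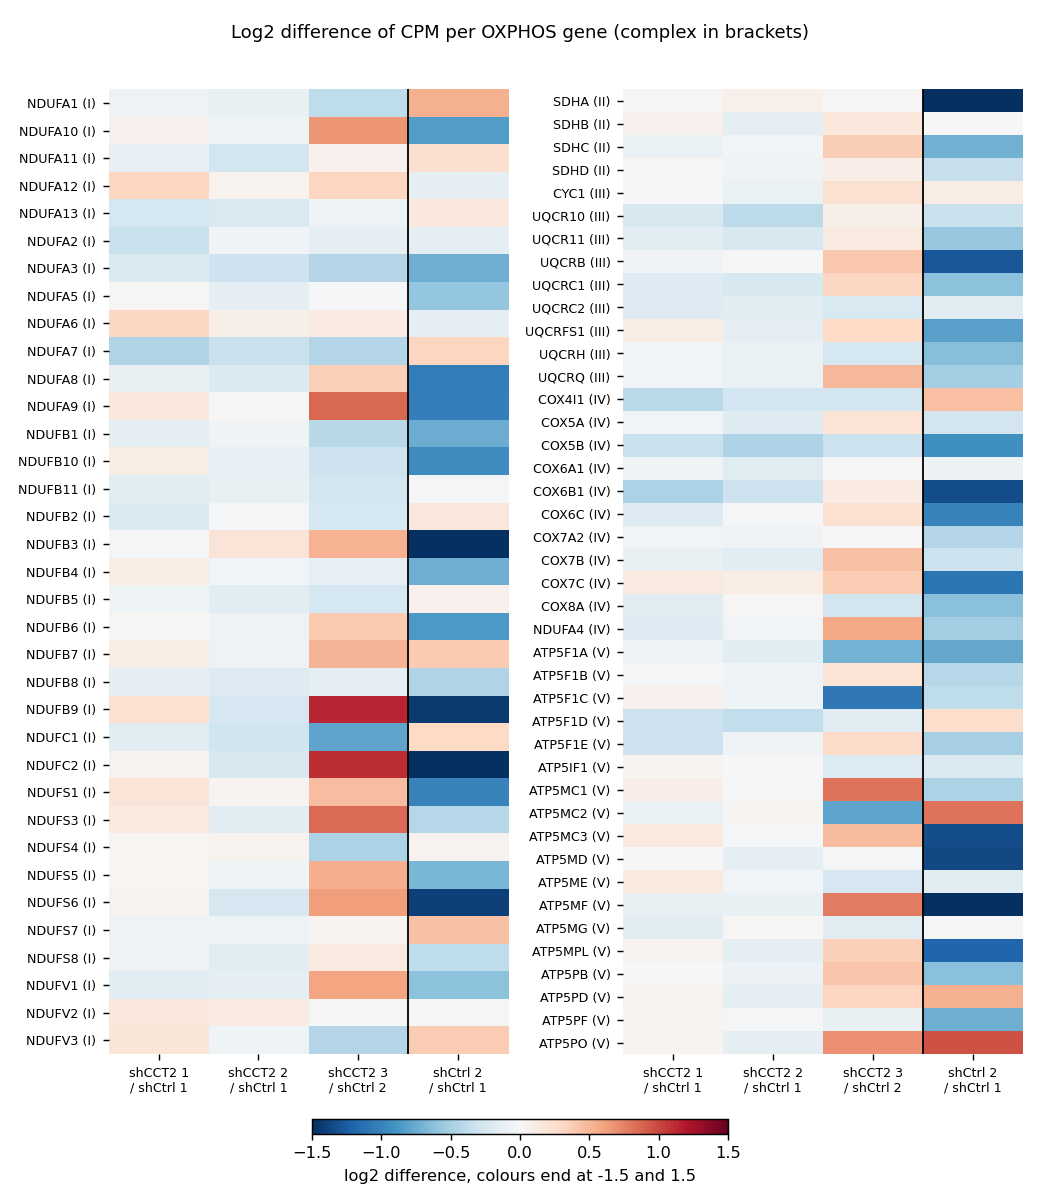
Log2 difference of CPM for the tested OXPHOS genes (rows, complex in brackets; 1 gene is not shown) in shCCT2 1 and 2 against shCtrl 1, shCCT2 3 against shCtrl 2, and shCtrl 2 against shCtrl 1 (columns); red is higher, blue lower. The set A columns are pale, with 0 genes past 1.5-fold, and shCCT2 3 holds 10 higher and 4 lower past it. The column that compares the controls is mostly blue, with 61 of 78 genes lower in shCtrl 2, beside 6570 of all 13123.

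No member passed the test of knockdown against control. In edgeR's quasi-likelihood fit over all 5 libraries, with the table as a term, 0 of 78 members had a Benjamini-Hochberg adjusted p under 0.05, as did 0% of all genes tested. At an unadjusted p under 0.05, 0 members were higher and 0 lower, beside 2.83% and 4.57% of all genes. DESeq2 called 13 genes at an adjusted p under 0.05, of which 0 were members. Fitted log2 changes of the members ran from -0.48 (NDUFC1) to 0.48 (NDUFB9), with a median of -0.0039 and 39 genes on each side of 0.

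Few members were higher in every knockdown library. Of 78 members, 20 were lower than the control of the same table in all 3 knockdown libraries, beside 21.4% of all genes, a share close to that of all genes. Of the 20, 12 were of complex I. A smaller number, 5, were higher in all 3 (NDUFA6, NDUFA12, NDUFS1, SDHA and COX7C), beside 20.2% of all genes. All 3 knockdown libraries lay below both controls for 7 members, among them NDUFA7, NDUFB2, NDUFC1 and UQCRC2, beside 8.28% of all genes, and above both for 1, NDUFA12, beside 7.97%. Without scaling, the counts in all 3 libraries were 29 lower and 4 higher. Leaving out either library of set B left 40 members lower in both libraries of set A. Leaving out shCCT2 2 gave 24 members higher in both remaining libraries, and leaving out shCtrl 1 gave 49 higher in shCCT2 3 alone, on scaling factors computed without it. With a library left out, agreement is asked for in fewer than 3 libraries, which more genes meet. Those counts are therefore not comparable with the 20 and 5. The share of all genes was not computed for these settings.

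In their summed level, the controls differed more than any knockdown library did from its own control. The members summed to 10148 CPM in shCtrl 1, 9861 in shCCT2 1 and 9448 in shCCT2 2, and to 7160 in shCtrl 2 and 7802 in shCCT2 3. These are differences of -2.83% and -6.9% in set A and 8.96% in set B, whereas shCtrl 2 differed from shCtrl 1 by -29.4%. Between the controls, 2 members were at least 1.5-fold higher in shCtrl 2, beside 27.4% of all genes, and 33 at least 1.5-fold lower, beside 24.7%. The median member differed by -0.46 on the log2 scale, against -0.0017 for all genes. ATP5MF, a small membrane subunit of complex V, stood at 239, 221 and 221 CPM in set A and at 35.6 and 61.3 CPM in set B. NDUFC2, an accessory subunit of complex I, stood at 114, 118 and 96.7 CPM in set A and at 23.3 and 50.7 CPM in set B. In both genes every set A library was above both set B libraries. The 2 genes are also among the 5 members with fractional counts (with NDUFV2, UQCRC2 and ATP5PF), which can arise where reads are shared between features. Each table held 1 control, so a difference between the controls cannot be told apart from one between the tables. The changes that follow are therefore within a table, and a statement on both controls or both tables describes levels only.

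**Figure D2:**
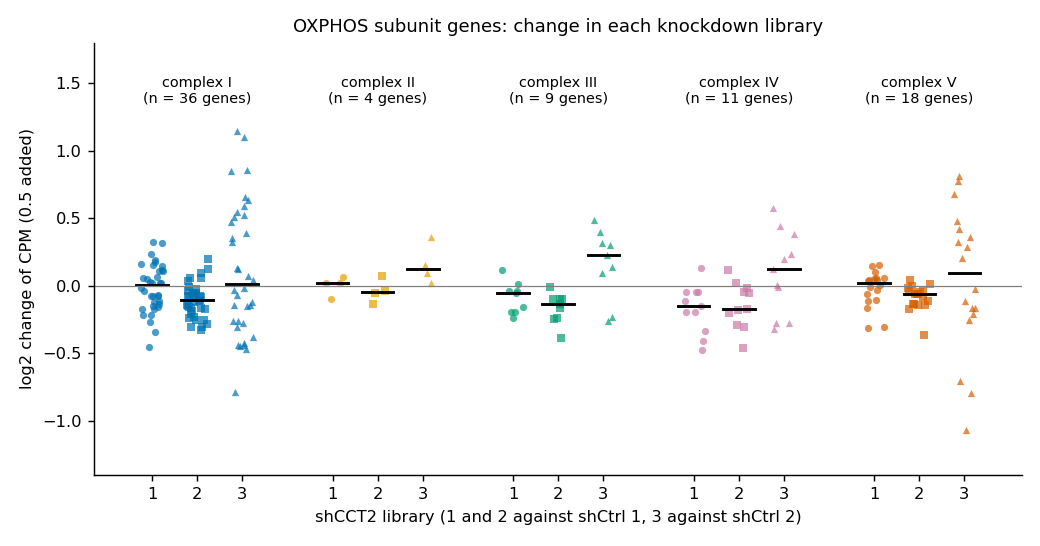
Log2 change of CPM (0.5 added) of each OXPHOS gene (points) in shCCT2 1, 2 and 3 against the control of the same table, by complex I to V; black lines are medians over the genes of a complex. Complex IV lies lowest in both set A libraries (medians -0.15 and -0.18), and the points of shCCT2 3 spread from -1.07 to 1.14.

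Complex I takes electrons from NADH, and its 36 members had medians of 0.0024, -0.11 and 0.01 in shCCT2 1, 2 and 3. In these libraries 18, 6 and 18 of them were higher than the control. Their summed level was 1.9% above shCtrl 1 in shCCT2 1, differed by -7.82% in shCCT2 2 and was 17.5% above shCtrl 2 in shCCT2 3. The 7 core subunits, which form the catalytic matrix arm, had medians of -0.04, -0.15 and 0.13. The 29 accessory subunits had medians of 0.02, -0.11 and -0.07.

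Among the accessory subunits, NDUFA7 stood at 26.3 CPM in shCtrl 1, 19.1 in shCCT2 1 and 20.8 in shCCT2 2, and at 32.9 in shCtrl 2 and 24.0 in shCCT2 3. The groups did not overlap, and the log2 changes were -0.45, -0.33 and -0.44. Its fitted change was -0.42 ± 0.21 (SE; edgeR adjusted p = 0.542). NDUFC1, a small subunit of the membrane arm, stood at 30.3, 27.2 and 24.4 CPM in set A and at 37.3 and 21.3 CPM in set B. All knockdown libraries were below both controls, most so in set B (-0.79, against -0.15 and -0.30), and the fitted change was -0.48 ± 0.24 (edgeR adjusted p = 0.542). NDUFA3, another accessory subunit, stood at 22.7, 19.5 and 18.3 CPM in set A and at 13.5 and 9.83 CPM in set B. It was lower in each knockdown library than in its own control, but all of set A lay above set B.

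NDUFA12, an accessory subunit of the matrix arm, was the member with every knockdown library above both controls. It stood at 38.6, 48.5 and 40.2 CPM in set A and at 35.2 and 44.2 CPM in set B, with log2 changes of 0.33, 0.06 and 0.33. NDUFA6, also of the matrix arm, stood at 45.3, 56.4 and 48.4 CPM in set A and at 40.8 and 44.5 CPM in set B. Here shCCT2 3 lay below shCtrl 1, so the groups overlapped across tables.

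Several complex I genes were further above their control in shCCT2 3 than in either set A library. In shCCT2 3, 7 of the 36 members were at least 1.5-fold higher and 1 at least 1.5-fold lower, beside 19.8% and 24.5% of all genes. Rises of this size were therefore about as frequent as among all genes. NDUFB9, of the membrane arm, stood at 251, 295 and 211 CPM in set A and at 92.4 and 205 CPM in set B. One set A knockdown library was above its control and the other below (0.23 and -0.25), whereas shCCT2 3 was 2.21-fold above shCtrl 2. Its fitted change over all libraries was 0.48 ± 0.31 (edgeR adjusted p = 0.551). NDUFC2 had log2 changes of 0.06, -0.24 and 1.10, and its level in shCCT2 3 was below all 3 set A libraries. NDUFA9, an accessory subunit, stood at 87.8, 98.0 and 87.3 CPM in set A and at 42.7 and 77.7 CPM in set B, 1.81-fold higher in shCCT2 3. The core subunits NDUFS3 and NDUFV1 had the same pattern. NDUFS3 stood at 47.2, 52.1 and 42.3 CPM in set A and at 34.8 and 63.2 CPM in set B. NDUFV1, which binds NADH and the flavin, stood at 194, 172 and 175 CPM in set A and at 126 and 190.2 CPM in set B. In both, shCCT2 3 reached the lower set A levels or passed them while shCtrl 2 lay below it.

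Complex II, succinate dehydrogenase, also belongs to the citric acid cycle and has no subunit from mitochondrial DNA. Its 4 genes had medians of 0.02, -0.05 and 0.12 in shCCT2 1, 2 and 3. SDHA, the flavoprotein, stood at 424, 429 and 446 CPM in set A and at 140.1 and 142 CPM in set B. Knockdown and control differed by at most 0.08 on the log2 scale in each table, while the controls differed by -1.59. SDHB, the iron-sulfur subunit, stood at 124, 130.4 and 113 CPM in set A and at 124 and 138 CPM in set B, at one level in both controls. Of the membrane anchors, SDHC stood at 117, 109.9 and 114 CPM in set A and at 70.7 and 91.2 CPM in set B. SDHD stood at 100.2, 101 and 96.4 CPM in set A and at 78.7 and 84.2 CPM in set B. Fitted changes of the 4 genes ran from 0.03 to 0.12 with SE of 0.17 to 0.19 (smallest edgeR adjusted p = 0.789), and SDHA, SDHB and SDHD had fitted values below 0 without scaling.

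Complex III passes electrons from quinol to cytochrome c, and all 9 tested genes were lower in shCCT2 2, by a median of -0.14. In shCCT2 1, 7 of the 9 were lower (median -0.06), and in shCCT2 3, 7 of the 9 were higher (median 0.23). Of the redox subunits, CYC1, cytochrome c1, stood at 236, 238 and 220.4 CPM in set A and at 255 and 299 CPM in set B. UQCRFS1, the Rieske iron-sulfur protein, had log2 changes of 0.12, -0.14 and 0.30. The core proteins parted in set B. UQCRC1 stood at 320.0, 280.2 and 270.2 CPM in set A and at 209.5 and 261 CPM in set B, with log2 changes of -0.19, -0.24 and 0.31. UQCRC2 stood at 241, 211 and 214.9 CPM in set A and at 215.5 and 183 CPM in set B, with log2 changes of -0.20, -0.17 and -0.23. Every knockdown library of UQCRC2 was below both controls, though shCtrl 2 was above shCCT2 2 by less than 1 CPM, and its fitted change was -0.20 ± 0.17 (edgeR adjusted p = 0.619). Of the small subunits, UQCRB stood at 253, 243 and 251 CPM in set A and at 104 and 138 CPM in set B. UQCRH, the hinge protein, had log2 changes of -0.04, -0.10 and -0.26. UQCRQ, another small subunit, had -0.04, -0.10 and 0.49.

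Complex IV, cytochrome c oxidase, had the lowest median of the 5 complexes in both set A libraries. In shCCT2 1, 10 of its 11 genes were lower (median -0.15), and in shCCT2 2, 9 of 11 (median -0.18), while 7 of 11 were higher in shCCT2 3 (median 0.13). The summed level differed by -10.7% and -9.19% in set A and by 2.98% in set B. COX5B, a subunit on the matrix side that binds zinc, stood at 144, 114 and 105 CPM in set A and at 76.3 and 61.0 CPM in set B. Each knockdown library was below its own control (-0.33, -0.46 and -0.32), but all set A libraries were above both of set B. Its fitted change was -0.37 ± 0.17, with an unadjusted p of 0.0721 and an edgeR adjusted p of 0.542.

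COX4I1, the subunit through which ATP is known to regulate the enzyme, stood at 170.1, 128 and 139 CPM in set A and at 233 and 192 CPM in set B. It was lower in each knockdown library (-0.41, -0.29 and -0.27), though shCCT2 3 lay above shCtrl 1, and the fitted change was -0.32 ± 0.17 (edgeR adjusted p = 0.542). COX6B1, which faces the intermembrane space, stood at 148, 106 and 119 CPM in set A and at 58.4 and 63.7 CPM in set B. It was the lowest member of shCCT2 1 (-0.48) and was slightly higher in shCCT2 3 (0.13). COX7C, a small membrane subunit, was the exception of the complex, higher in all 3 libraries. It stood at 140.2, 154 and 152 CPM in set A and at 66.1 and 86.1 CPM in set B, with a fitted change of 0.23 ± 0.18 (edgeR adjusted p = 0.585). COX6A1 stood at 262, 254 and 232 CPM in set A and at 247 and 247 CPM in set B, with log2 changes of -0.05, -0.18 and 0.0051. NDUFA4 stood at 129, 112 and 125 CPM in set A and at 89.1 and 133 CPM in set B, with log2 changes of -0.19, -0.04 and 0.58.

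Complex V, the ATP synthase, joins a soluble F1 head, which makes ATP, to a membrane ring of c subunits turned by protons. Its 18 genes had medians of 0.02, -0.06 and 0.09 in shCCT2 1, 2 and 3, and summed levels that differed by -2.24%, -5.65% and 4.42%. These small net differences covered opposite moves within the complex in set B, where 3 genes were at least 1.5-fold higher and 3 at least 1.5-fold lower, beside 19.8% and 24.5% of all genes, so such moves were no more frequent here than among all genes.

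In the F1 head, ATP5F1A, the alpha subunit, stood at 508, 488 and 451 CPM in set A and at 299 and 183 CPM in set B. ATP5F1C, the gamma subunit of the central stalk, stood at 229, 239 and 219 CPM in set A and at 175 and 83.3 CPM in set B. Both were close to the control in set A and lower in shCCT2 3, ATP5F1A 1.63-fold and ATP5F1C 2.10-fold. ATP5F1B, the catalytic beta subunit, stood at 956, 935 and 917 CPM in set A and at 708 and 818 CPM in set B, so it was higher in shCCT2 3 where alpha and gamma were lower. ATP5F1D, the delta subunit, stood at 78.7, 63.3 and 61.1 CPM in set A and at 94.8 and 84.6 CPM in set B. It was lower in each library (-0.31, -0.36 and -0.16), with shCCT2 3 above shCtrl 1.

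The c ring is made of identical subunits, and ATP5MC1, ATP5MC2 and ATP5MC3 encode the same mature c subunit with different import sequences. In set A their log2 changes ran from -0.10 to 0.15. ATP5MC1 stood at 50.6, 54.4 and 49.6 CPM in set A and at 36.4 and 64.1 CPM in set B, 1.75-fold higher in shCCT2 3. ATP5MC2 stood at 108, 100.3 and 111 CPM in set A and at 189.5 and 109 CPM in set B, 1.74-fold lower. ATP5MC3 stood at 209, 232 and 204 CPM in set A and at 82.5 and 115 CPM in set B, a log2 change of 0.48. For ATP5MC2, shCtrl 2 was the library that stood apart, above the other 4. The counts of these 3 genes were whole numbers in all 5 libraries.

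In the peripheral stalk, ATP5PO, the subunit that gives the enzyme its oligomycin sensitivity, stood at 106, 109.6 and 96.5 CPM in set A and at 207 and 332 CPM in set B. It was the member most above in shCtrl 2 (0.95 on the log2 scale) and higher again in shCCT2 3 (0.68). ATP5PB and ATP5PD had log2 changes of 0.42 and 0.32 in shCCT2 3, and between -0.13 and 0.05 in set A. ATP5IF1, the inhibitor of ATP hydrolysis, had log2 changes of 0.04, 0.00 and -0.21.

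**Figure D3:**
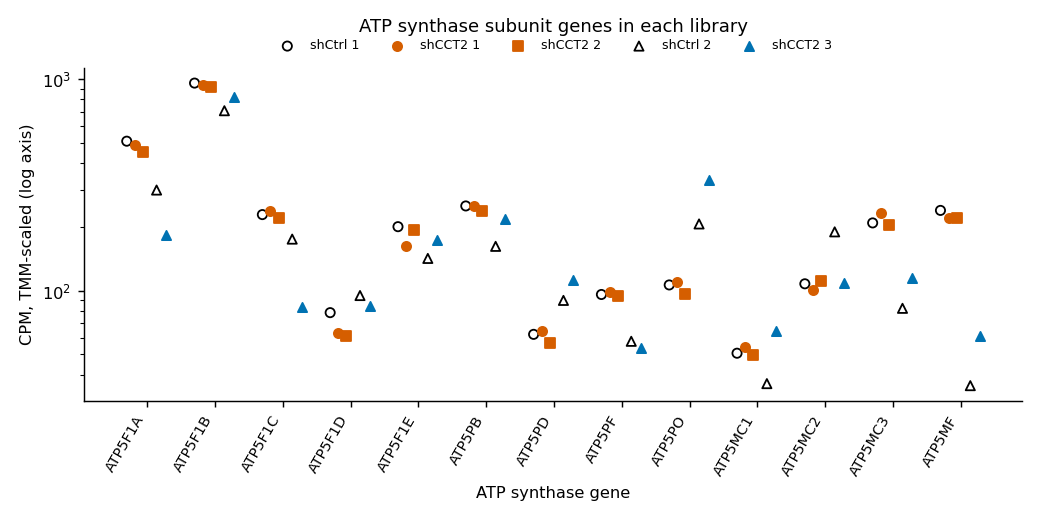
CPM (log axis) of 13 ATP synthase genes in each of the 5 libraries; open symbols are controls, filled symbols shCCT2 libraries, circles and squares set A, triangles set B. Each gene is to be read across its own libraries, since CPM is not divided by length. In set A most filled symbols lie near the open circle, but ATP5F1D is lower in shCCT2 1 and 2 (78.7 to 63.3 and 61.1). ATP5F1E is lower in shCCT2 1 (200 to 162). In set B, ATP5F1A (299 to 183), ATP5F1C (175 to 83.3) and ATP5MC2 (189.5 to 109) are lower in shCCT2 3 and ATP5MC1 (36.4 to 64.1) is higher.

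Whether a gene changed by different amounts in the tables was tested with the interaction of table and hairpin. No member passed at an adjusted p under 0.05 (0 of 78, and 0% of all genes; smallest edgeR adjusted p of a member 0.189), on 1 residual degree of freedom. At an unadjusted p under 0.05, 9 members differed, beside 17.2% of all genes. With shCCT2 3 the higher, these were NDUFC2, NDUFB9, ATP5MF, NDUFS3, NDUFA9, ATP5MC1 and NDUFV1, and with it the lower, ATP5F1C and ATP5MC2. The difference (set B minus set A) was 1.20 for NDUFC2, 1.14 for NDUFB9, -1.07 for ATP5F1C and -0.77 for ATP5MC2. Set B held 1 control and 1 knockdown library, so it gave this fit no spread between libraries. The residual came from the knockdown libraries of set A alone, so the p-values above do not cover variation between libraries in set B. Counting error alone in set B was 0.0172 to 0.14 on the log2 scale for the members, which does not include that variation. Across the 78 members, the mean change of set A and the change of set B had a Pearson r of 0.255 and a Spearman rho of 0.263, against 0.309 and 0.348 over all genes. The sign was the same for 35 of the 78 members, beside 8196 of all 13123 genes, so the members had the smaller share. Members are not independent, and all values of a table share its control library.

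**Figure D4:**
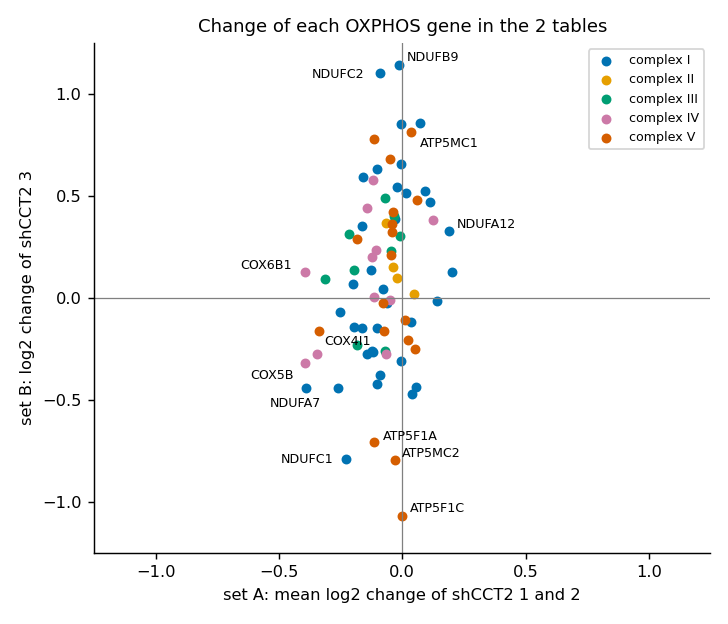
Log2 change of each OXPHOS gene in set B (shCCT2 3, vertical) against the mean log2 change of shCCT2 1 and 2 in set A (horizontal), on equal axes, coloured by complex. The cloud is tall and narrow: members span -1.07 to 1.14 in set B. The sign is the same in both tables for 35 of 78, beside 8196 of all 13123 genes.

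Members with and without a promoter motif were compared by their medians, with no test. The 13 with an NRF1 match had medians of 0.04, -0.06 and 0.0051 on the log2 scale in shCCT2 1, 2 and 3, and the 52 without had -0.05, -0.11 and 0.08. The 10 with an ETS match had medians of -0.04, -0.12 and 0.04, and the 55 without had -0.05, -0.08 and 0.04. The 8 with a YY1 match had 0.03, -0.05 and 0.08, and the 57 without -0.05, -0.11 and 0.02. The 6 with a TATA box had -0.15, -0.11 and -0.13, and the 59 without -0.04, -0.10 and 0.07, so their medians in shCCT2 3 were of opposite sign. In shCCT2 3 the members with an NRF1 match ranged from -1.07 (ATP5F1C) to 0.63 (NDUFS6).

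Lists of genes tied to OXPHOS were described in the same way, and in each of them 0 genes passed an adjusted p under 0.05 in edgeR. The 47 assembly factors, which build the complexes and are not part of them, had medians of 0.05, -0.04 and 0.20 in shCCT2 1, 2 and 3. At an unadjusted p under 0.05 in edgeR, 2 of the 47 were higher and 1 (SDHAF4) lower, beside 2.83% and 4.57% of all genes. BCS1L, which inserts the Rieske protein into complex III, stood at 21.7, 31.8 and 24.5 CPM in set A and at 12.7 and 40.6 CPM in set B. NDUFAF6, a complex I assembly factor, stood at 21.0, 34.5 and 22.9 CPM in set A and at 6.57 and 25.6 CPM in set B. Of 10 subunits and carriers left out by the rule, 5 were tested, with medians of 0.07, -0.12 and -0.67 in shCCT2 1, 2 and 3. In shCCT2 3, 3 of the 5 were at least 1.5-fold lower and 1 at least 1.5-fold higher, beside 24.5% and 19.8% of all genes. The 3 included COX6B2 and NDUFA4L2, both at low levels. NDUFA4L2 was highest in shCtrl 2, at 3.92 CPM. The median of -0.67 is the change of neither COX6B2 nor NDUFA4L2. It rests on 5 genes, so it says little about the list. CYCS, cytochrome c, stood at 223, 277 and 206 CPM in set A and at 166 and 351 CPM in set B. COX6B2, an isoform of the COX6B subunit, went the other way at low levels, with 3.46, 1.30 and 3.52 CPM in set A and 1.06 and 0.164 CPM in set B.

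Among 13 tested regulators of respiratory genes, medians were 0.20, -0.03 and -0.24. The list was split in shCCT2 3, where 6 of the 13 were higher and 7 lower. At a 1.5-fold change, 6 were higher and 1 lower there, beside 19.8% and 24.5% of all genes. PPARGC1B, the coactivator PGC-1beta, stood at 4.90, 2.24 and 2.39 CPM in set A and at 7.48 and 3.22 CPM in set B. Its knockdown libraries were all below both controls, with a fitted change of -1.14 ± 0.36 (unadjusted p = 0.019, edgeR adjusted p = 0.542). PPRC1, a related coactivator, stood at 80.8, 127 and 86.1 CPM in set A and at 61.5 and 119 CPM in set B (fitted 0.63 ± 0.25, edgeR adjusted p = 0.542). The 17 genes of the citric acid cycle and pyruvate dehydrogenase had medians of 0.02, -0.06 and 0.16. Of these, MDH2, malate dehydrogenase, had log2 changes of -0.07, -0.14 and -0.88, and IDH3A, of isocitrate dehydrogenase, 0.20, -0.06 and 1.02.

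The 78 mitochondrial ribosomal proteins, which translate the subunits from mitochondrial DNA, had medians of 0.12, -0.05 and 0.42, with 61, 27 and 60 genes higher. Of all 13123 genes, 6519, 6528 and 6406 were higher in the same libraries. In all 3 libraries, 20 of the 78 were higher, beside 20.2% of all genes. MRPL40 had log2 changes of 0.40, 0.19 and 0.85. The 20 mitochondrial chaperones and import proteins were higher in 20, 12 and 18 cases, with medians of 0.34, 0.01 and 0.42. Of these 20, 11 were higher in all 3 libraries, beside 20.2% of all genes. In this list HSPE1, the partner of the chaperonin HSPD1, had 0.37, 0.20 and 1.02, and the import pore TOMM40 had 0.51, -0.05 and 2.13. The 79 tested cytosolic ribosomal proteins had medians of -0.19, -0.14 and -0.04, and 41 of them were lower in all 3 libraries, beside 21.4% of all genes, among them RPLP2 (-0.39, -0.53 and -0.46). The median of the OXPHOS members lay between those of the cytosolic and the mitochondrial ribosomal proteins in each of the 3 libraries, and the difference between lists was not tested.

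**Figure D5:**
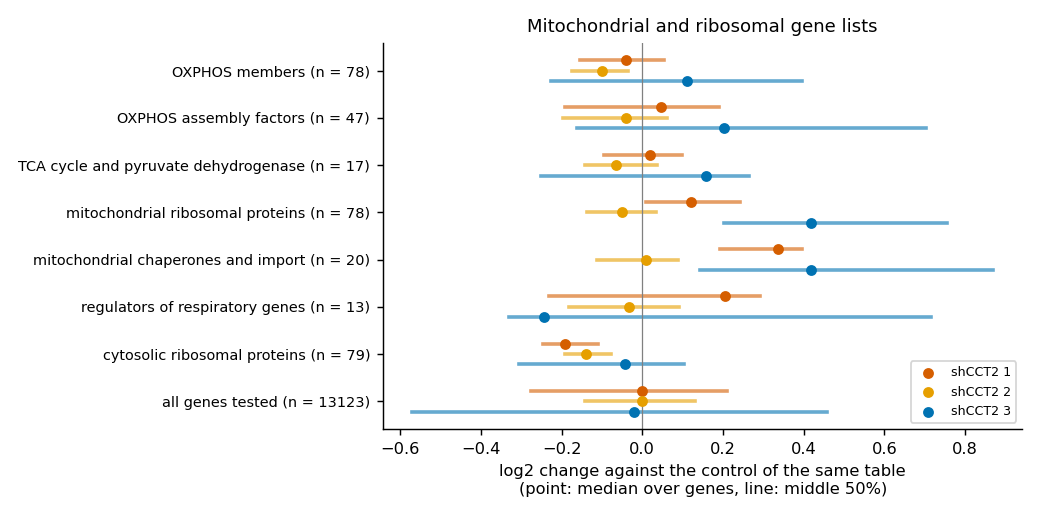
Log2 change against the control of the same table in shCCT2 1, 2 and 3 for the OXPHOS members, 6 further gene lists and all genes tested; points are medians over genes and lines the interquartile range. The members' medians are -0.04, -0.10 and 0.11, those of the mitochondrial chaperones and import proteins 0.34, 0.01 and 0.42, and those of the cytosolic ribosomal proteins -0.19, -0.14 and -0.04.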

How the data were processed

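RNA-seq was measured in 5 libraries of SAS cells. The authors deposited expected counts per gene in 2 tables (columns headed as read counts, although only 86.2% to 87.9% of a library's values were whole), and a coverage signal along transcripts, in 201 windows per library, per the file headers. Per the labels' protocols, mRNA was selected with oligo(dT), fragmented and primed with random hexamers. STAR 1.5.1, HTSeq and mm10, a mouse build, stand in the submitters' processing notes, while the identifiers are human, so the build and annotation used are not given in the sources used here, nor is strandedness.

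Tables were joined on gene identifier and counts rounded. The rule also matched ATP5MF-PTCD1 and ATP5MGL, listed in set A alone, with at most 4.91 and 1 counts, and these were not tested. Genes were tested by quasi-likelihood in edgeR 4.0.16 (R 4.3.3) after TMM scaling and edgeR's low-count filter, in a model with table and hairpin, with Benjamini-Hochberg adjustment over 13123 genes at 0.05. SE is the fitted log2 change over the square root of F. The common biological coefficient of variation was 0.255. The code was tested on simulated counts. No 2 libraries were copies (chi-square per degree of freedom at least 19.8). RefSeq (GRCh38.p14) gave the promoters. Alternatives were DESeq2 1.42.0, its size factors, no scaling, no filter, a filter of 10 counts in every library, a model without the table, the replicate number as a block, set A alone, robust estimation, pseudocounts of 0.1 and 2 for 0.5, and each library left out.

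Genes were named by a rule: CCT2, all of complex II, and in each other complex the 3 smallest p, the 2 largest fitted changes each way and the 2 highest mean CPM, and 2 per further list by p. Other members were named after their values were seen. Members and lists were chosen with earlier results of these data known. The values of 1 member are not reported here.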

Additional observations from a re-analysis of the deposited data

How the results depend on the processing

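Under each setting run, in edgeR or DESeq2, 0 members passed an adjusted p under 0.05. Over all genes, DESeq2 called 13, and leaving out a library gave 0 to 2 (2 without shCCT2 2). Members at an unadjusted p under 0.05 numbered 1 without scaling and 0 to 15 with a library left out. The 15 came without shCtrl 1, where shCCT2 1 and 2 alone set the spread, and the smallest member adjusted p was then 0.0852. The members' median in shCCT2 3 was 0.0012 without scaling. The fitted median ran from -0.0676 to 0.142 with a library left out (0.142 without shCtrl 1), with 29 to 57 members lower. Members lower in every remaining knockdown library numbered 22 to 40, and those higher 6 to 49. These counts ask for agreement in fewer libraries than the main result does, so they are not comparable with it. For the difference between tables, 575 genes passed without scaling, 0 of them members, and 5 members had an unadjusted p under 0.05 with DESeq2's size factors. The cause of these moves was not tested. The tests of the difference between tables took their spread from the knockdown libraries of set A alone.

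With the replicate number as a block in place of the table, the fitted median was 0.16 and 24 members were lower. Same-numbered deviations correlated at 0.685 for number 1 and -0.602 for number 2, and number 2 joins libraries of different tables, so the number does not pair these libraries. Under this block the sign turned for SDHB (-0.0347), CYC1 (-0.101), UQCRH (0.254), COX5B (0.0612), ATP5F1A (0.267), ATP5F1C (0.193) and ATP5PO (-0.527).

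With set A alone, fitted log2 changes turned sign for NDUFC2 (-0.0829), NDUFV1 (-0.159), SDHB (-0.0316), SDHC (-0.0651), SDHD (-0.0181), CYC1 (-0.0434), UQCRB (-0.0323), UQCRC1 (-0.217), UQCRQ (-0.0674), NDUFA4 (-0.117), ATP5F1B (-0.045), ATP5F1C (0.00264) and ATP5PO (-0.0449). Leaving out each library gave ranges of -0.0842 to 1.15 for NDUFC2, -0.16 to 0.622 for NDUFV1, -0.033 to 0.183 for SDHB, -0.0664 to 0.396 for SDHC, -0.0195 to 0.127 for SDHD, -0.0448 to 0.26 for CYC1, -0.0337 to 0.43 for UQCRB, -0.218 to 0.344 for UQCRC1, -0.0687 to 0.52 for UQCRQ, -0.112 to 0.0349 for COX6A1, -0.118 to 0.611 for NDUFA4, -0.0464 to 0.239 for ATP5F1B, -1.04 to 0.00209 for ATP5F1C and -0.0463 to 0.713 for ATP5PO. In these the sign turned without shCtrl 2 or shCCT2 3, and for COX6A1 without shCtrl 1. Without scaling the sign turned for SDHA (-0.0304), SDHB (-0.0184), SDHD (-0.034), UQCRC1 (-0.0572) and ATP5F1B (-0.00173), and with the stricter filter for UQCRC1 (-0.00278). The turned values did not pass a test. The 324 other single-gene values kept their direction and side of the threshold, and CCT2 passed in DESeq2.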
